A study of Rattus norvegicus with 12 samples.

Results

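The Hox genes were examined in rat lumbar spinal cord as a readout of position along the body axis. Members were all entries whose symbol is Hox, a cluster letter from a to d and a paralog number. This gave 39 of the 23526 genes in the table, with 0 repeated symbols, and 38 passed the filter on low counts, the exception being Hoxd12. RNA sequencing of whole tissue from segments L3 to L5 covered 4 groups of 3 libraries: sham at day 0, and spinal cord injury (SCI) at days 3, 7 and 14. The labels state neither the strain, age or sex of the rats nor the level and kind of injury. All sham libraries are labelled day 0, so days 3, 7 and 14 have no sham of their own day. Nothing in the labels says that the libraries of a group are separate animals. A p-value here therefore reflects the spread between samples, which is not known to be spread between animals. That spread was larger than counting error, with a chi-square per gene of 63.03 to 769 for pairs of libraries within a group.

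Hox genes encode homeodomain transcription factors that give cells of the embryo their address from head to tail. They lie in 4 clusters, and the order of the genes on the chromosome follows the order of their expression along the axis: low paralog numbers reach far forward, and high numbers are confined to the caudal end. In the spinal cord, Hox proteins set the identity of motor neuron columns and pools, and much of the code persists in the adult.

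In this table the Hoxa cluster held 11 members on chromosome 4, the Hoxb cluster 10 on chromosome 10, the Hoxc cluster 9 on chromosome 7 and the Hoxd cluster 9 on chromosome 3. Library totals, in units of 1e+06 counts, ran from 63 to 79.1, and the summed counts of the Hox genes ran from 17260 to 43750 per library. CPM, counts scaled to a library total of 1000000, compares libraries, and FPKM, which divides by gene length, compares genes.

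Hoxd10 was at 1 CPM or more in all 12 libraries, Hoxa11 in 11 and Hoxd11 in 9. The proximal promoters of these genes are shown. Each is 250 bases before to 50 after the transcription start, from RefSeq on build GRCr8: Hoxd10 at chr3:80001697-80001996 on the + strand, Hoxd11 at chr3:79992144-79992443 on the + strand and Hoxa11 at chr4:82676752-82677051 on the - strand.
Hoxd10: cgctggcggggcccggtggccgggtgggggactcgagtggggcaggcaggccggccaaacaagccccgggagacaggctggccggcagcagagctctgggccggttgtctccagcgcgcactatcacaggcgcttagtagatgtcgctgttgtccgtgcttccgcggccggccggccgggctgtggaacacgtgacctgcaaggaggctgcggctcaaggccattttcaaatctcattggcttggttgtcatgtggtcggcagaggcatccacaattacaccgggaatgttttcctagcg
Hoxd11: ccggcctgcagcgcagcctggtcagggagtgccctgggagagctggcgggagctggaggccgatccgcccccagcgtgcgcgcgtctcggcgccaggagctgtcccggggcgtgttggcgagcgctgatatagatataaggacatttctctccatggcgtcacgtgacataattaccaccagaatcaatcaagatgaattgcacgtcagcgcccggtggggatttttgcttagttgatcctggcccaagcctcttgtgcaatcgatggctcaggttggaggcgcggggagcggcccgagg
Hoxa11: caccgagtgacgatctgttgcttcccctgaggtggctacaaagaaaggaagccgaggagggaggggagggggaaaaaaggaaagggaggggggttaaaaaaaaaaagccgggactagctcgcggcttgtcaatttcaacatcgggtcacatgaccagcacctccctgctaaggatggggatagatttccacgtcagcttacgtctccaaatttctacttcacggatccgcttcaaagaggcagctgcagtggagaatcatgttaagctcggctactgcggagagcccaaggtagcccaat
The letters TTTAT, a core bound by posterior Hox and Cdx proteins, were searched on both strands (ATAAA on the other). They had no match in these 3 windows, which therefore hold no capitals. Of the 21 promoters of the 20 members with an entry, 7 held a match, against 42.54% of all 33469 promoters of the same length. TTTAT holds no G or C, and the median share of G and C was 62.33% in Hox promoters and 51.67% in all promoters. The dinucleotide CG occurred 24 times in the Hoxd10 window, 25 times in Hoxd11 and 13 times in Hoxa11, beside a median of 22 over the 21 Hox promoters and 7 over all promoters.

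The lumbar code was centred on paralogs 8 to 10. By mean FPKM over the 12 libraries, Hoxb8 was highest at 52.6, followed by Hoxc10 at 18.4, Hoxb6 at 14.4, Hoxd8 at 12.9, Hoxa9 at 11.8 and Hoxa10 at 11.5. Hoxb8 is known from dorsal horn development, and the paralogs of group 10 specify lumbar motor neurons. Of the summed Hox FPKM, paralog 8 held 27.2%, and paralogs 9 and 10 held 14.3% each, with paralog 6 next at 7.81%. The share of paralog 8 came mostly from Hoxb8, which gave 52.6 of its 71.7 FPKM. Hoxb1, which acts in the hindbrain, averaged 0.226 FPKM. Among paralogs 1 to 10, 27 of 30 members had at least 1 CPM in all 12 libraries. Of paralogs 11 to 13, 0 of 9 did.

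**Figure D1:**
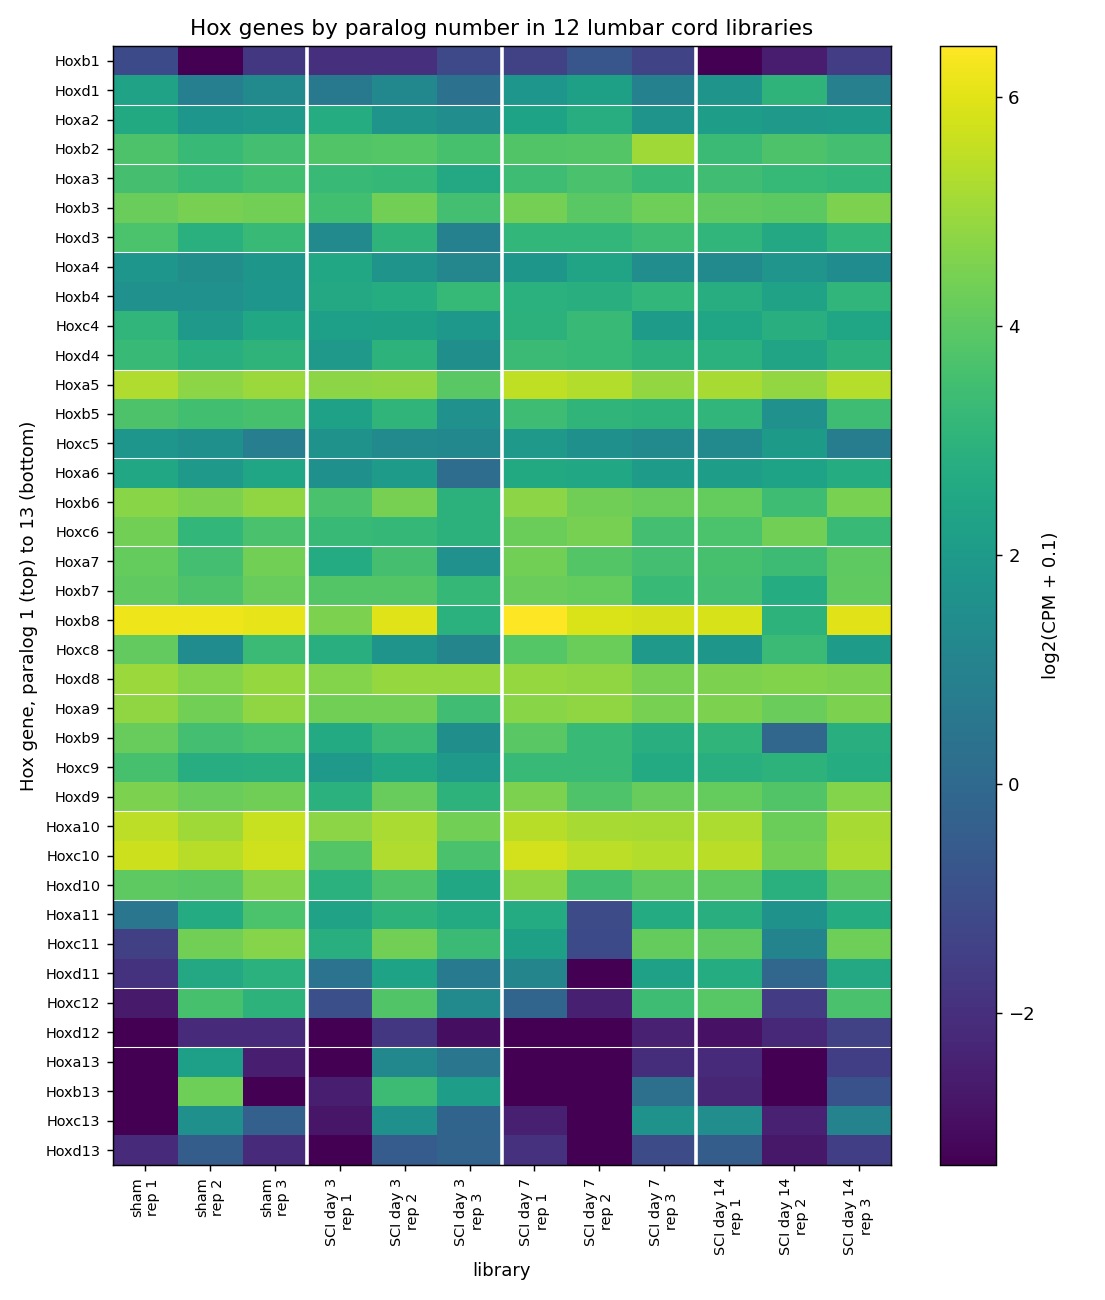
Each line of the grid is 1 Hox gene among those reported here, from paralog 1 at the top to paralog 13 at the bottom, each column is 1 library, and colour gives log2(CPM + 0.1). Most genes of paralogs 4 to 10 are bright in every library, an exception being Hoxb9 at 0.844 CPM in SCI day 14 replicate 2. Hoxc12 and Hoxc13 are bright in some and dark in other libraries of each group, and Hoxd12 and Hoxd13 are dark throughout.

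The caudal end of the code differed sharply between libraries of the same group. Paralogs 11 to 13, which mark caudal lumbar to tail levels, held 0.352%, 14.7% and 9.62% of all Hox counts in sham replicates 1 to 3. Their share was 4.48%, 13.1% and 11.6% at day 3, 2.41%, 0.168% and 9.51% at day 7, and 10.3%, 2.12% and 9.60% at day 14. In 7 libraries the share was above 9%, and every group held at least 1 library well below that. Exact (Clopper-Pearson) 95% intervals were 0.293% to 0.419% for sham replicate 1 and 14.3% to 15.1% for sham replicate 2, so counting error was far smaller than the spread. These intervals cover counting error only.

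**Figure D2:**
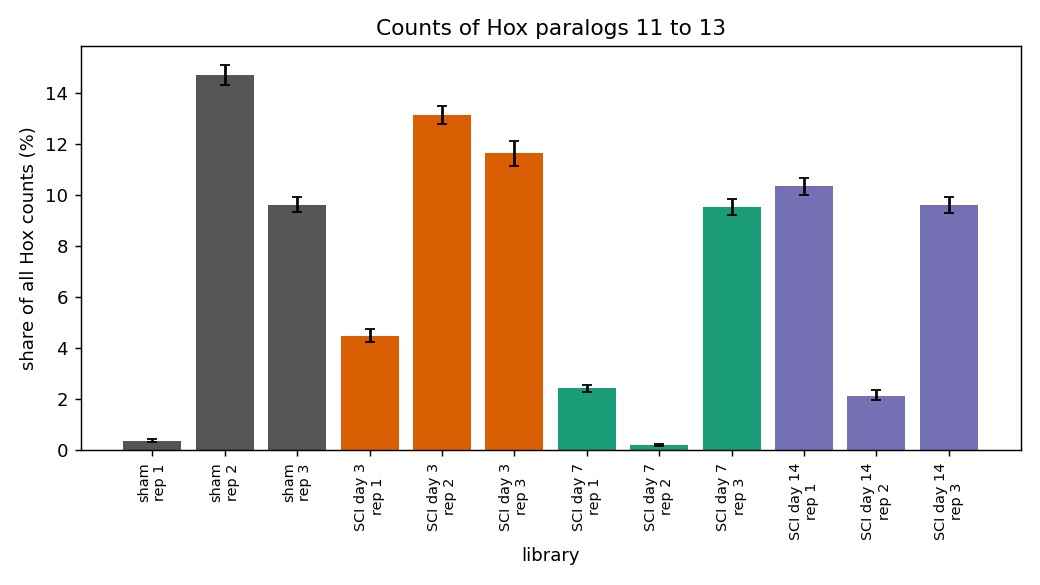
Bars give the percent of all Hox counts that fell on paralogs 11 to 13 in each library, with exact 95% intervals and colours for the 4 groups. Sham replicate 1 and SCI day 7 replicate 2 sit below 0.4%, and each group also holds a library above 9%.

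Hoxc11, a gene of the lumbosacral cord, was at 0.263, 20.6 and 25.6 CPM in sham replicates 1 to 3. After SCI it was at 6.80, 20.4 and 9.87 CPM at day 3, 4.63, 0.359 and 17.6 at day 7, and 16.2, 2 and 19.7 at day 14. Sham replicate 1 and SCI day 7 replicate 2 were lowest, and each group overlapped every other. Hoxa11 was at 1.32, 6.34 and 12.5 CPM in sham, 4.88, 7.83 and 6.17 at day 3, 6.41, 0.373 and 6.27 at day 7, and 7.12, 3.09 and 6.49 at day 14. Hoxd11 was at 0.17, 5.80 and 7.48 CPM in sham, 1.21, 4.94 and 1.5 at day 3, 2.05, 0 and 4.70 at day 7, and 6.53, 0.83 and 5.86 at day 14. Both were again low in sham replicate 1 and SCI day 7 replicate 2. Against a floor of 3 counts in the library, Hoxd11 in sham replicate 3 was at least 180.5-fold higher than in SCI day 7 replicate 2.

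Hoxc12 was at 0.0619, 12.2 and 7.82 CPM in sham, 0.417, 13.8 and 2.41 at day 3, 0.804, 0.0829 and 10.7 at day 7, and 14.8, 0.225 and 12.3 at day 14. It was below 1 CPM in 5 libraries, spread over all 4 groups. Hoxc13 was at 0, 2.92 and 0.706 CPM in sham, 0.0506, 2.92 and 0.782 at day 3, 0.0804, 0 and 3.16 at day 7, and 2.65, 0.0844 and 1.98 at day 14. Hoxb13, the most caudal gene of its cluster, was at 0, 19.2 and 0 CPM in sham, 0.0759, 10.3 and 4.21 at day 3, 0, 0 and 1.13 at day 7, and 0.106, 0 and 0.444 at day 14. Sham replicate 2 alone held more than all other libraries together, at least 414.4-fold above sham replicate 1 against the same floor. Hoxa13 was highest in the same library, at 4.42 CPM, and elsewhere reached 2.29 CPM in SCI day 3 replicate 2 and 1.33 in SCI day 3 replicate 3, with at most 0.254 in the other 9. Hoxd12 stayed at or below 0.27 CPM and Hoxd13 at or below 0.755 CPM in every library.

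**Figure D3:**
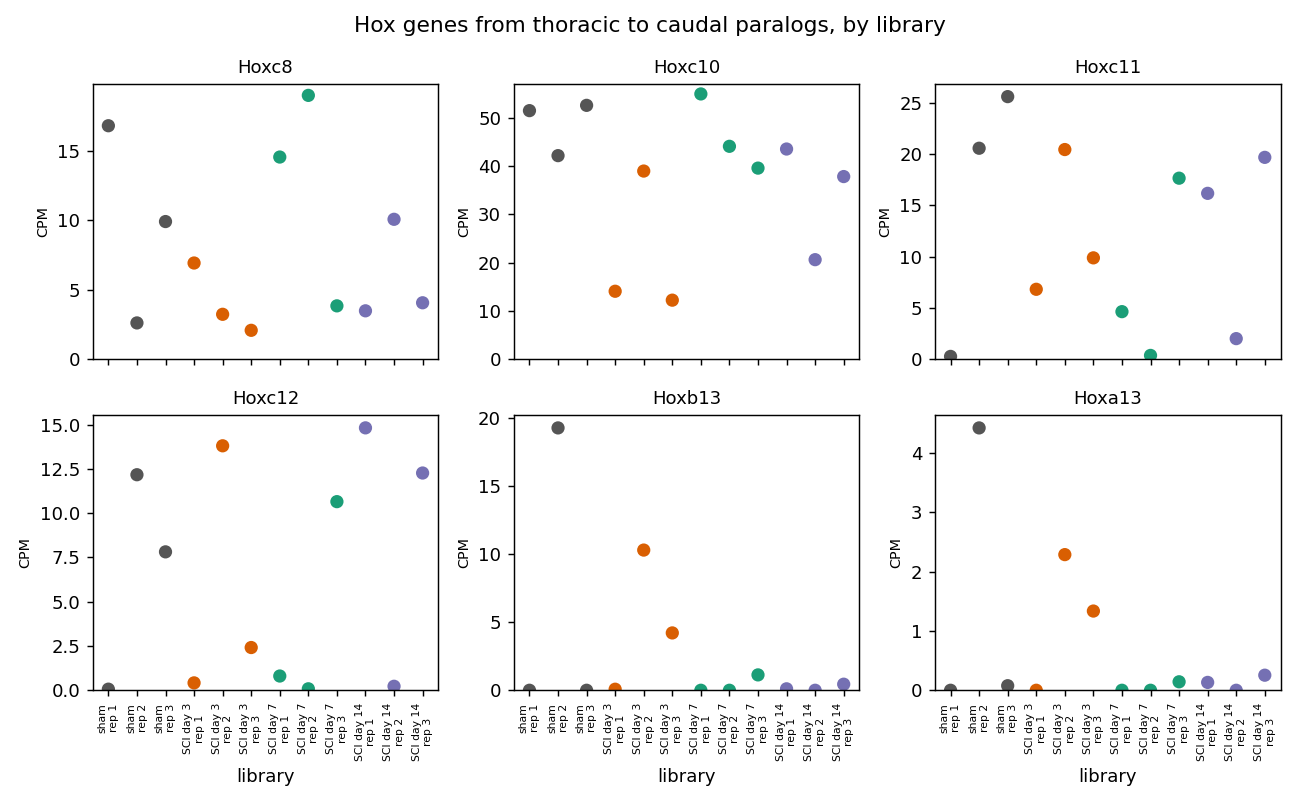
Points give the CPM of 6 Hox genes in each of the 12 libraries, coloured by group, on axes that start at 0. Hoxc11 and Hoxc12 are near 0 in sham replicate 1 and SCI day 7 replicate 2, where Hoxc8 is highest at 16.8 and 19.0 CPM, and Hoxb13 is above 4 CPM in 3 libraries.

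For 7 of the 9 genes of paralogs 11 to 13, the libraries that reached 1 CPM were mostly nested. Hoxa11 reached 1 CPM in 11 libraries, Hoxc11 in 10, Hoxd11 in 9, Hoxc12 in 7, Hoxc13 in 5, Hoxb13 in 4 and Hoxa13 in 3. For 19 of the 21 pairs of these 7 genes, the libraries of the rarer gene were all among those of the commoner gene. The other 2 pairs set Hoxc13 against Hoxb13 and Hoxa13, because Hoxc13 was at 0.782 CPM in SCI day 3 replicate 3. Hoxd12 and Hoxd13, which reached 1 CPM in 0 libraries, were not among the 7. Paralog number did not set the order throughout, since Hoxc13 reached 1 CPM where Hoxd12 did not, and Hoxb9 was below 1 CPM in SCI day 14 replicate 2, where Hoxa11 was at 3.09. The 1 CPM level and the 7 genes were chosen after the values were seen.

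Hoxc8, a gene of brachial and thoracic levels, was highest where the caudal genes were lowest. It was at 16.8, 2.61 and 9.92 CPM in sham, 6.93, 3.23 and 2.08 at day 3, 14.6, 19.0 and 3.84 at day 7, and 3.48, 10.1 and 4.06 at day 14. It was highest in the libraries with the least Hoxc11, sham replicate 1 and SCI day 7 replicate 2. The ratio of Hoxc11 to Hoxc8 CPM was 0.0156, 7.88 and 2.58 in sham, 0.982, 6.32 and 4.75 at day 3, 0.317, 0.0189 and 4.59 at day 7, and 4.64, 0.198 and 4.84 at day 14. Hoxc10, which lies between them in the cluster, stayed high where Hoxc11 was near 0: 51.5 CPM in the first sham library and 44.1 in the second of day 7, within the range of the other sham libraries (42.2 and 52.6).

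A level ratio was taken as log2 of the CPM of paralogs 10 to 13 over that of paralogs 4 to 9, a description with no test. Paralog 10 weighed more in it than paralogs 11 to 13, at 112 against 1.94 CPM in sham replicate 1. From most to least caudal, SCI day 14 replicate 2 ranked 12 by the ratio but 10 by the share of paralogs 11 to 13. The ratio was -1.69, -0.75 and -0.83 in sham, -1.63, -0.83 and -1.01 at day 3, -1.47, -1.84 and -0.90 at day 7, and -0.86, -1.84 and -1.13 at day 14. The group means were -1.09 ± 0.52, -1.16 ± 0.42, -1.40 ± 0.47 and -1.28 ± 0.51 (SD, n = 3 each). Each mean lay within the range of the libraries of every other group. Means of 3 libraries vary less than single libraries do, so their closeness alone does not weigh groups against replicates. The edgeR biological coefficient of variation within groups had a median of 0.344 for the 30 tested members of paralogs 1 to 10 and 1.34 for the 8 of paralogs 11 to 13, beside 0.314 for all genes tested. Whether these libraries came from different segments was not tested.

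Markers of other tissues also varied between libraries. The list of 8 Schwann cell genes, which mark peripheral nerve and roots, had a mean log2 distance from the sham mean of -0.93, 1.53 and -0.60 in sham, 0.50, 1.25 and 1.91 at day 3, -0.57, -1.88 and 0.91 at day 7, and 1.05, 0.87 and 0.48 at day 14. It was highest in the 3 libraries with the most Hoxb13 and Hoxa13 and lowest in SCI day 7 replicate 2 and sham replicate 1, the libraries with the least Hoxc11. The value of 0.87 belongs to a library with little Hoxc11, at 2 CPM. Prx, a myelin protein of Schwann cells on that list, ran from 154 CPM in SCI day 7 replicate 2 to 3998 in SCI day 3 replicate 3. Acta1, of skeletal muscle, reached 62.8 CPM in SCI day 7 replicate 2 against 3.26 or less in the other libraries. The part of these tissues in the Hox values was not tested.

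At day 3, the fitted values of most Hox genes lay below sham, and only Hoxb4, which rose, passed the test. In bulk tissue, fewer cells of a type and less RNA per cell cannot be told apart. Of the 38 tested members, 1 was called by edgeR's quasi-likelihood test with Benjamini-Hochberg adjustment, against 6.7% of all genes tested. At an unadjusted p under 0.05 there were 13 members, against 35.3% of all genes, and DESeq2 called 7, against 26.8% of all genes. The log2 fold change was above 0 for 7 members and below 0 for 31, while 51.9% of all genes were above 0. Over the members it had a median of -0.54 beside 0.03 over all genes tested. Without SCI day 3 replicate 2 the count of called members was 15, while 37.1% of all genes were then called.

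Hoxb4, a gene of hindbrain and cervical levels that responds to retinoic acid, was the called member. It was at 2.99, 3.01 and 3.39 CPM in sham, 5.91, 6.57 and 9.26 at day 3, 7.53, 7.07 and 8.79 at day 7, and 6.70, 4.85 and 8.41 at day 14. At day 3 it was the 1 member wholly above sham, against 21.2% of genes. All 9 SCI libraries were above all 3 sham libraries, as they were for 4.37% of genes tested. The opposite held for 1 member, Hoxb5, against 1.73% of genes: it was at 12.9, 11.1 and 11.9 CPM in sham and at most 10.4 in the SCI libraries. The log2 fold change of Hoxb4 at day 3 was 1.18 ± 0.26 (SE; edgeR adjusted p = 0.0372). At day 7 it was 1.28 ± 0.26 (edgeR adjusted p = 0.234) and at day 14 1.04 ± 0.26 (edgeR adjusted p = 0.511), neither past the threshold; the 3 comparisons share the sham libraries. DESeq2 called Hoxb4 on all 3 days, with adjusted p of 3.74e-04, 3.89e-04 and 0.0171. The edgeR call at day 3 was lost without any 1 of the sham replicates, SCI day 3 replicates 1 or 3, SCI day 7 replicate 2, or SCI day 14 replicates 1 or 3, with log2 fold changes of 0.93 to 1.33 over all libraries left out in turn, and in a fit blocked by replicate number (adjusted p = 0.0731).

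**Figure D4:**
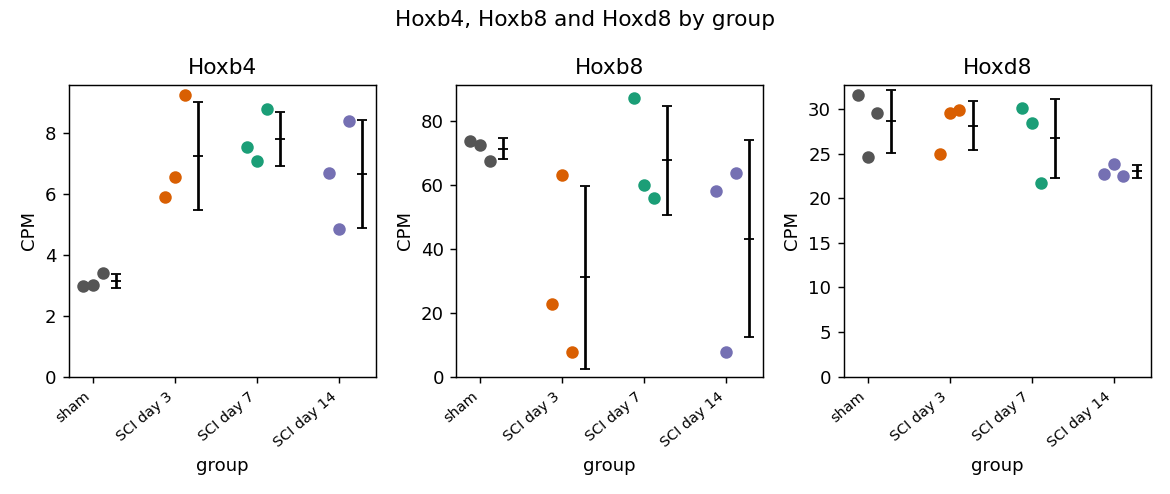
Points give the CPM of each library by group for 3 Hox genes, with bars for the mean ± SD of 3 libraries. All 9 SCI libraries lie above sham for Hoxb4, 3 SCI libraries lie far below the rest for Hoxb8, and Hoxd8 stays between 21.7 and 31.6 CPM.

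Hoxb8 was at 73.7, 72.4 and 67.5 CPM in sham, 22.6, 62.9 and 7.52 at day 3, 86.9, 59.8 and 55.8 at day 7, and 57.9, 7.82 and 63.6 at day 14. The 3 low libraries were SCI day 3 replicates 1 and 3 and SCI day 14 replicate 2. Slc12a5, the neuronal chloride cotransporter KCC2, was low in the same libraries: 494, 456 and 599 CPM in sham, 33.2, 389 and 30.3 at day 3, 423, 258 and 361 at day 7, and 452, 94.6 and 404 at day 14. Summed over the list of 10 neuronal genes, CPM ran from 2276.8 to 3197.4 in sham, 207.6 to 2299.2 at day 3, 1769.2 to 2464.2 at day 7 and 1154.5 to 2546.7 at day 14, and the part of neuron content in the Hox values was not tested. Chat, of motor neurons, was at 2.06 and 1.32 CPM in SCI day 3 replicates 1 and 3 but at 42.6 in SCI day 14 replicate 2.

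Hoxb9 followed Hoxb8, at 0.844 CPM in SCI day 14 replicate 2 and 2.82 in SCI day 3 replicate 3 against 11.6 to 17.8 in sham. Hoxd8, its neighbour in paralog number but of another cluster, did not: it was at 25.0, 29.5 and 29.9 CPM at day 3 and 22.7, 23.8 and 22.5 at day 14, against 31.6, 24.7 and 29.6 in sham. Within day 3, 26 of 38 members were lower in both replicates 1 and 3 than in replicate 2, against 37.1% of genes tested. Within day 14, 25 of 38 were lower in replicate 2 than in both others, against 37.2%. The libraries compared were picked with values of these data known. They are the ones low in Hoxb8, which is itself among the 38 and in both counts. A share above that of all genes is therefore partly built in, and these counts are no test. Hoxc8, Hoxd8, Hoxa4, Hoxc5 and Hoxc6 were in neither count.

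Hoxc10 was at 51.5, 42.2 and 52.6 CPM in sham, 14.1, 39.0 and 12.2 at day 3, 55.0, 44.1 and 39.6 at day 7, and 43.6, 20.6 and 37.9 at day 14. All day 3 libraries were below sham, and the log2 fold change was -1.21 ± 0.42 (edgeR adjusted p = 0.083). Hoxc9, which sets thoracic motor neuron identity, was at 11.9, 6.75 and 7.14 CPM in sham and 3.72, 5.48 and 3.68 at day 3, and its log2 fold change was -1.05 ± 0.29 (edgeR adjusted p = 0.0553). In all, 8 members lay wholly below sham at day 3, against 15.9% of genes tested: Hoxb5, Hoxb6, Hoxb8, Hoxb9, Hoxc9, Hoxc10, Hoxd9 and Hoxd10. The largest falls in log2 fold change that missed the threshold were those of Hoxc8 (-1.33) and Hoxd3 (-1.33), and both overlapped with sham. That of Hoxc8 was -0.66 without sham replicate 1 and at its lowest -1.92 without SCI day 3 replicate 1. That of Hoxd3 was -2.24 without SCI day 3 replicate 2, where it passed the threshold (edgeR adjusted p = 0.00106). Hoxd3 was at 12.8, 7.34 and 9.69 CPM in sham, 2.45, 7.96 and 1.87 at day 3, 8.85, 8.76 and 10.5 at day 7, and 8.55, 5.92 and 8.78 at day 14, lowest in SCI day 3 replicates 1 and 3.

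Other strongly expressed members varied less. Hoxa9 was at 28, 20.7 and 28.5 CPM in sham, 20.6, 20.8 and 10.9 at day 3, 26.2, 28.5 and 21.9 at day 7, and 22.9, 18.5 and 22.7 at day 14. Hoxa10 was at 44.5, 33.5 and 49.4 CPM in sham, 26.9, 36.8 and 20.3 at day 3, 41.9, 35.8 and 34.8 at day 7, and 38.2, 19.1 and 35.4 at day 14. Both overlapped between sham and each day, and SCI day 3 replicate 3 was the lowest or next to lowest library. Hoxb6 was at 26.2, 22.9 and 28 CPM in sham, 12.5, 21.7 and 7.74 at day 3, 26.9, 20.1 and 17.8 at day 7, and 17.6, 10.4 and 22.2 at day 14. Hoxd9 was at 23.1, 18.5 and 19.7 CPM in sham, 7.37, 18 and 7.81 at day 3, 22.6, 13.4 and 18.1 at day 7, and 17.4, 13.9 and 24.9 at day 14. Hoxb6 lay wholly below sham at days 3 and 14, and Hoxd9 at day 3. Hoxc9 at the later times was at 9.52, 9.53 and 6.13 CPM at day 7 and 6.99, 7.83 and 6.52 at day 14, overlapping with sham.

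The anterior member Hoxb1 was near the limit of detection. It was at 0.356, 0 and 0.2 CPM in sham, 0.152, 0.158 and 0.351 at day 3, 0.282, 0.511 and 0.3 at day 7, and 0, 0.0703 and 0.238 at day 14. Every SCI group overlapped with sham.

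At days 7 and 14, edgeR called 0 of 38 members in each comparison with sham, against 0.016% of genes on each day. At an unadjusted p under 0.05 there were 2 at day 7 (9.89% of all genes) and 1 at day 14 (7.4%), and DESeq2 called 1 on each day, against 2.6% of genes at day 7 and 1.16% at day 14. The log2 fold change was above 0 for 14 members at day 7 (47.4% of genes) and for 9 at day 14 (51.1%), with medians over the members of -0.11 and -0.31. At day 7, Hoxb2 and Hoxb4 lay wholly above sham, 2 members against 13.9% of genes, and Hoxb5 lay wholly below, 1 member against 9.73%. Hoxb2, a hindbrain regulator, was at 32.9 CPM in replicate 3 and at 13.8 and 14.1 in replicates 1 and 2, against 13.1, 9.70 and 11.5 in sham. At day 14, Hoxb5, Hoxb6, Hoxb8, Hoxb9 and Hoxd8 lay wholly below sham, 5 members against 4.77% of genes tested, and Hoxb4 wholly above, 1 member against 11%. The fitted log2 fold changes of Hoxa13 (-4.96 at day 7, -3.56 at day 14) and Hoxb13 (-4.11 and -5.17) rested on sham replicate 2, and all were above 0 without it.

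**Figure D5:**
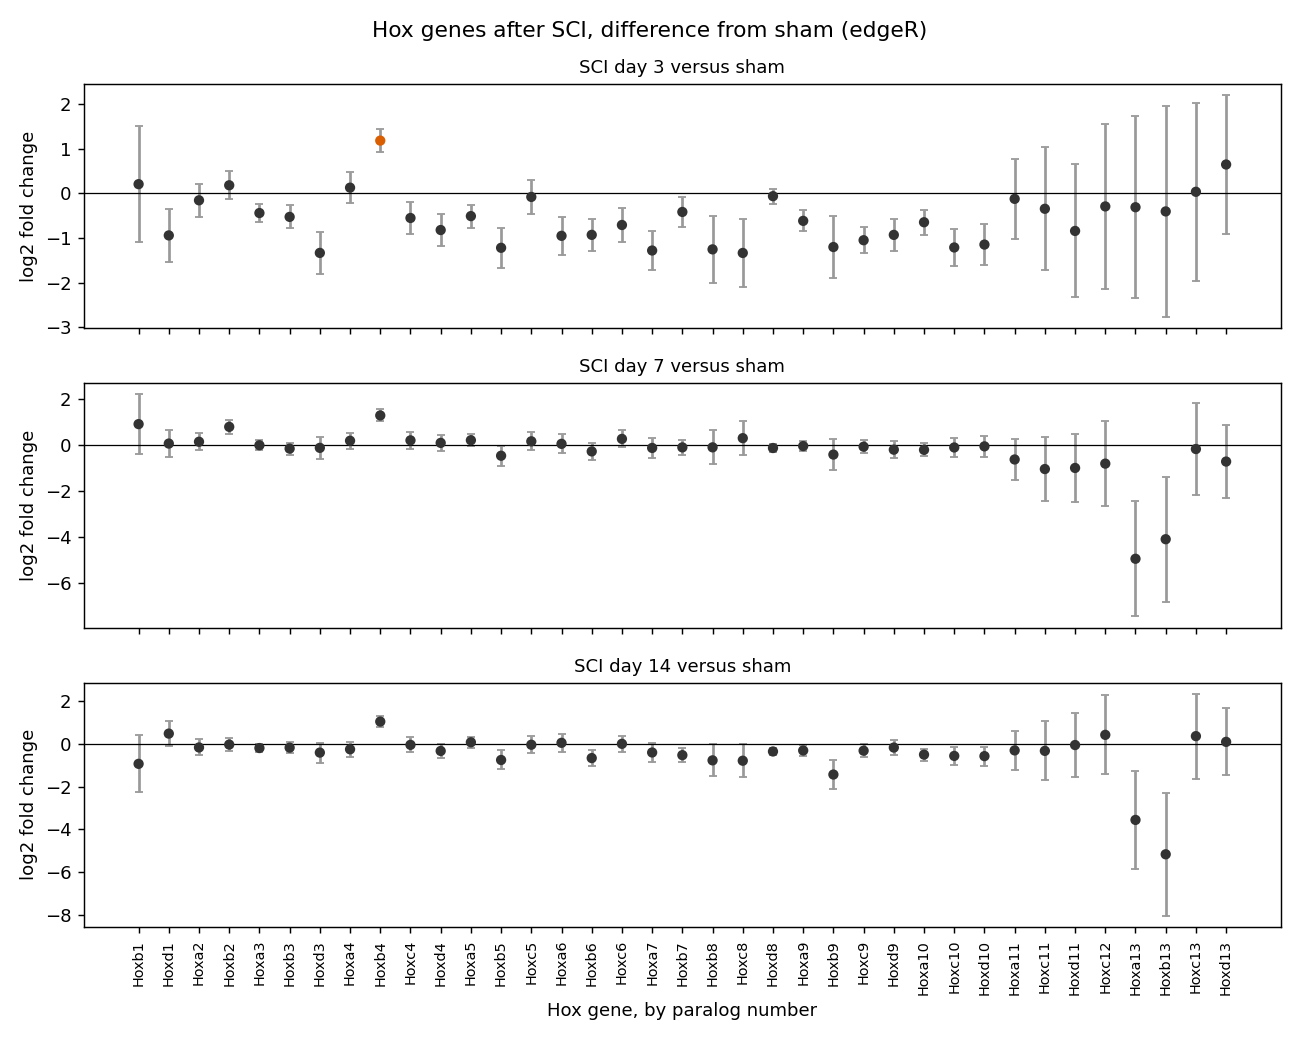
Points give the log2 fold change from sham of the tested Hox genes reported here, ordered by paralog number, with bars of 1 SE, for days 3, 7 and 14. Hoxb4 at day 3 is the called gene (orange), and the bars widen from paralog 11 on.

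Between SCI days edgeR called 0 of 38 members in each of the 3 comparisons, against 0% of genes. DESeq2 also called 0 members in each. Its share of all genes was 1.22% for day 7 against day 3, 0.223% for day 14 against day 7 and 6.4% for day 14 against day 3. At an unadjusted p under 0.05 there were 10 members for day 7 against day 3 (14.8% of genes), 1 for day 14 against day 7 (3.67%) and 4 for day 14 against day 3 (17.9%). From day 3 to day 7, 7 members did not overlap and were higher, against 6% of genes: Hoxa3, Hoxa5, Hoxa9, Hoxc6, Hoxc9, Hoxc10 and Hoxd3. None lay wholly lower, against 7.76%. From day 7 to day 14, 3 were wholly lower (4.26% of genes), Hoxb1, Hoxb2 and Hoxd4, and none wholly higher (5.77%). From day 3 to day 14, Hoxa5, Hoxa6, Hoxc4 and Hoxc9 were wholly higher, 4 members against 6.78%, and Hoxd8 was wholly lower, 1 member against 9.62%. The log2 fold change was above 0 for 28 members from day 3 to day 7 (47.1% of genes), 11 from day 7 to day 14 (51.2%) and 25 from day 3 to day 14 (50.5%). Across the 4 groups together edgeR called 0 members, against 0.0427% of genes, with 2 at an unadjusted p under 0.05 (19.5%) and 2 by DESeq2, against 15% of genes.

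Hoxd1, which acts in sensory neurons that detect painful stimuli, was highest in SCI day 14 replicate 2, at 8 CPM, against 4.89, 1.75 and 2.4 in sham, 1.45, 2.26 and 1.17 at day 3, 3.38, 4.54 and 1.84 at day 7, and 3.2 and 1.79 in the other day 14 libraries. In that library the nociceptor sodium channel gene Scn10a was at 131 CPM. It was at 78.8 CPM in SCI day 14 replicate 1, at 19.9 in SCI day 3 replicate 2 and no higher than 1.06 in the rest. The part of ganglion tissue in the Hoxd1 value was not tested.

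Few partners and regulators of Hox proteins were called, as was so for genes in general. Over all genes tested, edgeR called 6.7% at day 3 and 0.016% at each of days 7 and 14. Counts of 0 in lists this short therefore say little about their genes. The TALE proteins Pbx, Meis and Pknox, which bind DNA together with Hox proteins, had 0 of 9 called by edgeR on any day against sham, with median log2 fold changes of -0.32, -0.33 and -0.04. Of the inducers of Hox expression, 0 of 7 tested were called on any day. Of the Polycomb and Trithorax genes, which keep Hox genes silent or active, 2 of 20 rose at day 3, a share near the 6.7% of all genes called. Eed, a core subunit of the complex that methylates histone H3, was at 13.1, 16.5 and 15.3 CPM in sham and 30.9, 23.0 and 32.7 at day 3, and its log2 fold change was 0.92 (edgeR adjusted p = 0.0338). Rnf2, which ubiquitinates histone H2A, was at 19.2, 20.1 and 18.2 CPM in sham and 32.5, 29.1 and 34.4 at day 3, and its log2 fold change was 0.70 (edgeR adjusted p = 0.0351). Neither list had a call at day 7 or 14. Whether Eed and Rnf2 stayed called with libraries left out was not tested. Over all genes, the 1254 called at day 3 became 6 without sham replicate 1, 1 without sham replicate 3 and 7087 without SCI day 3 replicate 2. Among the 13 neighbours of the clusters 0 were called. Of 12 factors of the forebrain and midbrain, 6 passed the filter on low counts, and the 12 summed to between 1.15 and 6.63 CPM per library. Otx2, 1 of the 12, was at or below 0.0759 CPM in every library.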

How the data were processed

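Total RNA from 12 lumbar cord samples was made into libraries with an mRNA kit, per the labels' protocols. Raw reads per gene were deposited as counts, per the file headers. FPKM, scaled by gene length and library total, was deposited beside them, per the file headers, and served only to compare genes. The submitters' processing notes name GRCm38 and mm10, mouse builds, while gene identifiers are rat, so no coordinates of the table are given. For aligner, counting tool and use of strand, nothing is stated: not given in the sources used here. Hoxa3 overlaps Hoxa4, Hoxa5 and Hoxa6 on the same strand, so counts of these are uncertain.

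CPM is counts over the library total. Genes were filtered with filterByExpr by group, leaving 18714, and scaled with TMM. All 12 libraries entered 1 model with a mean for each group, tested by quasi-likelihood in edgeR 4.0.16 (R 4.3.3), with Benjamini-Hochberg adjustment over all genes and a limit of 0.05. SE is the absolute log2 fold change over the square root of F, so it restates the test. DESeq2 1.42.0, other scalings and filters, a replicate block and left-out libraries were alternatives, and the test was tested on simulated data. Named were, per cluster, the 2 members highest by FPKM and the most caudal at 1 CPM with the next one, called members, the 2 largest changes each way from sham, and members with most of their CPM in 1 library. A few genes under this rule or in the lists are not reported here. Other members were named after their values were seen. Members and lists were chosen with earlier results of these data known. The level ratio as a covariate and leaving out sham replicate 1 and SCI day 7 replicate 2 were added after the values were seen. In the promoters TTTAT was searched first and CG was counted beside it. The promoters printed are the 3 first chosen: an exchange of Hoxa11 for Hoxa13, and of TTTAT for CG as the motif, made after their counts were seen, was undone.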

Additional observations from a re-analysis of the deposited data

How the results depend on the processing

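Hoxb4 stayed above 0 in all 23 alternatives on each day and was called in 10 at day 3, and in 1 each at days 7 and 14. Members called at day 3 numbered 7 with DESeq2 (26.8% of all genes) and 2 with a filter of 1 CPM in every library of a group (11%). They numbered 0 in a fit of only the groups compared, where 0.00559% of all genes were called. Without both sham replicate 1 and SCI day 7 replicate 2 they also numbered 0, against 0% of all genes. Leaving out SCI day 14 replicates 1 and 2, or SCI day 3 replicates 1 and 3, leaves 1 library in that group. That library is assumed to vary like the other groups, so counts of calls from these 2 fits are not given. The log2 fold change of Hoxb4 at day 3 was 1.19 in the first and 1.02 in the second. DESeq2 called 1 at day 7 (2.6% of all genes), 1 at day 14 (1.16%) and 2 across the 4 groups (15%). With libraries left out in turn, called members ranged from 0 to 15 at day 3, 0 to 9 for day 7 against day 3, 0 to 7 for day 14 against day 3 and 0 to 7 across the 4 groups. The highest of each came without SCI day 3 replicate 2, where 37.1%, 18.9%, 22.8% and 22.7% of all genes were called. The level ratio ranged then from -1.26 to -0.79 in sham, -1.32 to -0.92 at day 3, -1.65 to -1.18 at day 7 and -1.49 to -1.0 at day 14. As a centred mean of log2 CPM it was -0.054, 0.64, -0.82 and 0.22 in sham and days 3, 7 and 14, and with paralog 9 counted as caudal -0.19, -0.31, -0.48 and -0.33. With libraries left out in turn, the log2 fold change of Hoxa13 ran from -9.74 to 0.24 at day 7 and -4.44 to 1.64 at day 14, and that of Hoxb13 from -11.83 to 7.74 and -6.85 to 6.68, each highest without sham replicate 2. Hoxd1 at day 14 ran from -0.33, without SCI day 14 replicate 2, to 1.05, and was -0.84 without replicates 1 and 2. The cause was not tested.

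Replicate numbers did not pair the samples: r of same-numbered libraries ran from -0.34 to 0.25, with 6 of 18 pairs over 0.1, and 0 of 12 libraries correlated best with their own number. With the replicate block, 0 Hox genes were called at day 3, against 0.0427% of all genes. Genes at or under 3 counts in a library, such as Hoxb13 in 5 libraries with no counts, are limited by depth.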

Other observations

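A feature between Hoxa11 and Hoxa13 on the opposite strand, AABR07073021.1, varied with the caudal Hox genes: it was at 0.356, 4.62 and 6.73 CPM in sham, 1.35, 4.30 and 2.39 at day 3, 3.30, 0.345 and 3.83 at day 7, and 3.91, 1.04 and 3.97 at day 14. It was lowest in sham replicate 1 and SCI day 7 replicate 2, and as the use of strand is not given, reads of neighbouring genes cannot be told apart from its own. A long noncoding RNA between Hoxb7 and Hoxb6 stayed between 3.8 and 6.95 CPM.

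With the level ratio of each library as a covariate, edgeR called 1 gene along it, Hoxc12, whose own counts enter the ratio. The other tested Hox genes were not called, although many of them enter the ratio too. Of genes other than Hox genes, 0 were called, and 1887 had an unadjusted p under 0.05, among 18714 genes tested. With 7 residual degrees of freedom and most Hox genes missed, that 0 says little about whether other genes follow the ratio. Hoxb4 was still called at day 3, at 1.19 on the log2 scale (edgeR adjusted p = 0.0483).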
